A study of Mus musculus with 7 samples.

Results

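Natural killer (NK) cells and many T cells carry receptors of the killer lectin-like family, and 9 genes of this system were followed here through the lymphocytes of mouse glioma: Klrk1, Klrc1, Klrc2, Klrd1, Klrb1c, Klrg1, Klre1, Ncr1 and Hcst. All 9 are rows of a UMI matrix of 55491 gene rows, of which 31358 hold a value above 0. The list was chosen by the names of the genes, and also selected on 1 measured value of these data, a low unadjusted p of Klrk1 between the genotypes in T cells. Differences between the genotypes in T cells are therefore given below as a description with no test, and tests were run in NK cells and in the classes other than T cells.

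The cells came from the tumour-bearing cerebral hemispheres of 7 mice engrafted with CT-2A, a mouse glioma line, at an age of 8 to 12 weeks. The 4 knockout mice (KO) carried the Sall1CreERT2 driver (B6;129-Sall1<tm5(cre/ERT2)Ryn>), a tamoxifen-activated Cre recombinase placed under the microglial gene Sall1, together with floxed Siglece alleles (B6.129P2-Siglece<tm1Bcgen>), and the 3 WT mice carried Siglecefl/fl without the driver. Both groups received 2.5 mg tamoxifen per injection, daily from day 7 to day 21 after engraftment and every other day from then on, so the WT mice also carry the floxed alleles and the drug. Suspensions were frozen and thawed, live CD45+ and/or CD11b+ cells were sorted, and 1 droplet 5′ library was made per mouse.

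The libraries held 1410 to 5856 cells each, 28644 in all, with a median of 4479 to 9554 UMIs per cell. The authors gave 13692 cells 1 of 10 T cell names and named 909 cells NK, between 51 and 259 per mouse. Siglece, the targeted gene, had 3 UMIs in 113 KO microglia and 46 in 301 WT microglia, and 43.8 against 43.4 UMIs per 1000000 UMIs in monocyte-derived cells. A 5′ tag can also come from a transcript with a deletion farther along. By Xist and Y-linked genes, 3 mice were female (KO replicate 1, KO replicate 2, WT replicate 3) and 4 male. There were 460 cell barcodes that occurred in more than 1 library. Of 10 NK cell markers that are not among the 9 genes, 8 (Eomes, Gzma, Prf1, Klra4, Klra7, Klra8, Klra9 and Klri2) had their highest mean in the cells named NK. The exceptions were the adaptors Fcer1g and Tyrobp, which were higher in myeloid classes. At least 1 Cd3d, Cd3e or Cd3g UMI was found in 27.7% of the NK cells, from 13.7% in WT replicate 1 to 41.5% in WT replicate 2.

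These receptors pair with partners and set the balance between killing and restraint. CD94, encoded by Klrd1, forms a heterodimer with NKG2A (Klrc1), which inhibits the cell, or with NKG2C (Klrc2), which activates it, and both bind Qa-1, the product of H2-T23, loaded with peptides from other class I molecules. NKG2D (Klrk1) is an activating receptor that signals through the adaptor DAP10 (Hcst) and binds stress-induced ligands of the RAE-1, H60 and MULT1 families on tumour cells. NKp46 (Ncr1) and NK1.1 (Klrb1c) are activating receptors used to recognise NK cells in C57BL/6 mice, KLRG1 (Klrg1) is an inhibitory receptor for cadherins, and Klre1 encodes a partner chain for other receptors of the family.

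On build GRCm38, 7 of the 9 genes lie on chromosome 6. Klre1 (chr6:129577905-129585827), Klrd1 (chr6:129591782-129598775), Klrk1 (chr6:129610323-129623864), Klrc2 (chr6:129647496-129660689) and Klrc1 (chr6:129666015-129678973) follow each other in the NK gene complex, with the first 2 on the plus strand and the others on the minus strand. Klrb1c (chr6:128778485-128789215) and Klrg1 (chr6:122270596-122282882) lie at a distance on the same chromosome, on the minus strand. Ncr1 (chr7:4337724-4345164, plus strand) and Hcst (chr7:30417712-30419854, minus strand) are on chromosome 7.

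Some of these genes are near copies, which bears on every value of Klrc1 and Klrc2. The coding sequences of Klrc1 and Klrc2 were identical at 83.1% of 714 aligned bases, and those of Klrc2 and its neighbour Klrc3 at 95.3% of 663 aligned bases, with an unbroken identical run of 203 bases. The first 90 coding bases of Klrc2 and Klrc3 are shown because this is the end that a 5′ library reads. They differ at 1 base, in capitals (GENCODE M21 coding sequences on GRCm38, 5′ to 3′).
Klrc2: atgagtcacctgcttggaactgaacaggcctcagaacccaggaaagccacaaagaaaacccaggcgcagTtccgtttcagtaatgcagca
Klrc3: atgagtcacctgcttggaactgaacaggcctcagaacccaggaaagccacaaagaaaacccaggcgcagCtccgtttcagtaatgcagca
The deposited matrix holds values that are not whole numbers for such genes and for others. Of the UMIs of Klrc2, 30.1% were in values that were not whole to within 0.001, as were 34.9% of those of Klrc3, 14.2% of those of Klrb1c and 8.34% of those of Klrc1. Over all genes of the matrix the share was 8.69%, so Klrc1 did not stand above it. The other 6 genes of the list held whole values alone. Levels of the Klrc genes and of Klrb1c, which has close relatives of its own, are therefore uncertain to the extent that reads were divided between copies.

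The promoters are shown because several of the genes rose and fell together across cell types (below). RefSeq start sites (GRCm38.p6) were given for 7 of the 9 genes: Klrk1, Klrc1, Klrc2, Klrb1c, Klre1, Ncr1 and Hcst. The 250 bases before the first listed start of each were searched on both strands for the letters of 5 factor families active in lymphocytes: RUNX (TGTGGT), T-box (TCACAC), AP-1 (TGANTCA), TCF (CTTTGA) and ETS (AGGAAG). By the first listed start, the RUNX letters occurred in the windows of 6 of the 7 genes, all but Hcst, and in 14.0% of 32817 promoter windows of the same length. The T-box letters occurred in 1 of the 7 (Ncr1) and in 12.3% of all windows, the ETS letters in 2 of the 7 (Klrb1c and Hcst) and in 29.5%, and the AP-1 and TCF letters in 0 of the 7, against 6.75% and 13.8%. Before the second listed start of Klre1 there were no RUNX letters, but 1 match each of the T-box and ETS letters. The RefSeq starts of Klre1, Klrc2 and Klrb1c lie inside the GENCODE gene spans given above, and so do the windows shown for these 3 genes. A match of 6 letters is a description of the sequence and was not tied to binding by any file used here. The windows below hold up to 25 bases on each side of a RUNX match, which is in capitals (ACCACA is the same motif on the opposite strand), in the direction of transcription.
Klrk1, chr6:129623963-129624018: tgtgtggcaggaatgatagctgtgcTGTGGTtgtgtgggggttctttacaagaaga
Klrc1, chr6:129679030-129679085: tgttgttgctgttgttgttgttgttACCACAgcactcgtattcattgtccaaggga
Klrc2, chr6:129660602-129660657: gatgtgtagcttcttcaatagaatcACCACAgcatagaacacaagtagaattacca
Klrb1c, chr6:128788700-128788755: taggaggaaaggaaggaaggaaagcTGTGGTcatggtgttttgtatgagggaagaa
Klre1, chr6:129577963-129578014: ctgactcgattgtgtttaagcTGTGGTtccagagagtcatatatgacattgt
Ncr1, chr7:4337514-4337569: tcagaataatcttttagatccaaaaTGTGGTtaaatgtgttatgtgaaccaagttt
Klrc2 and Ncr1 each held the letters at a second place, with the Klrc2 match beginning 9 bases before the start.

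Levels were expressed as UMIs of a gene per 1000000 UMIs of the summed cells of 1 name in 1 mouse (CPM), and compared for each gene across the 11 T and NK names, over mice with at least 20 cells of the name. Between genes CPM is not a measure of relative abundance. Because the names were made from the same cells, the orders below are a description. A step between neighbours is called separate where every mouse of the higher name lay above every mouse of the lower.

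**Figure D1:**
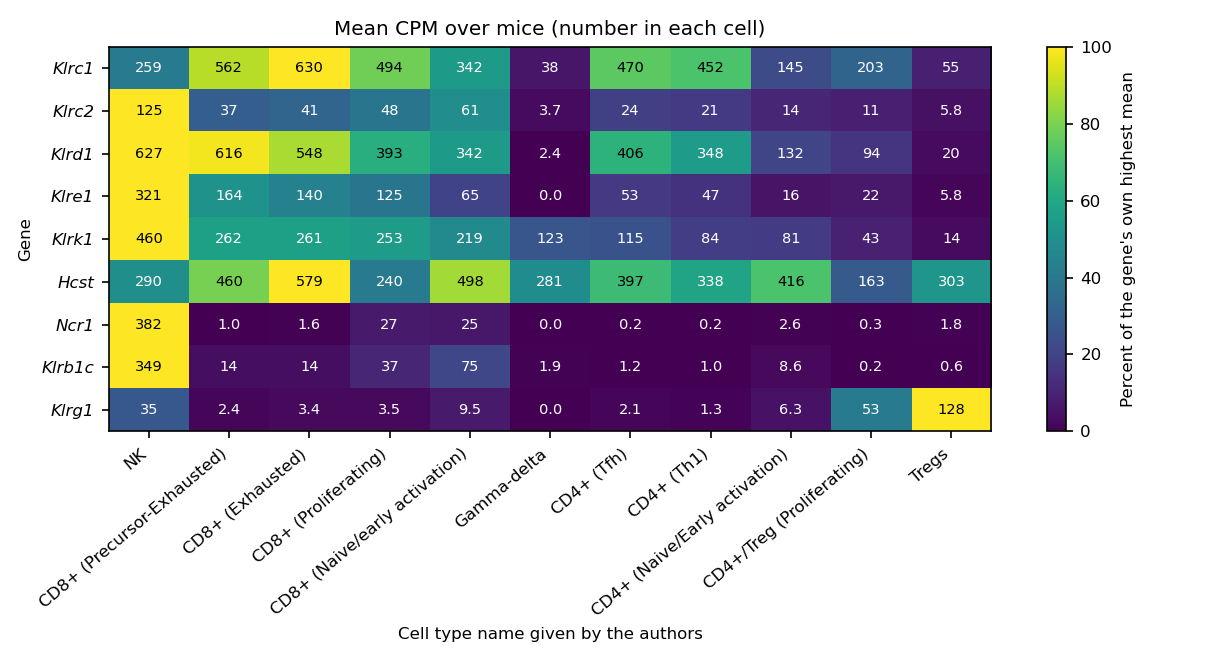
Mean CPM of the 9 genes (rows) in the 11 T and NK cell names (columns) over mice with at least 20 cells; numbers are means, and colour gives each mean as a percent of the gene's own highest mean. Ncr1, Klrb1c and Klre1 peak in NK cells, Klrc1 and Hcst in exhausted CD8+ T cells, and Klrg1 in Tregs.

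3 of the genes set NK cells apart from every T cell name. Ncr1 was at 382 ± 67.1 CPM in NK cells (mean ± SD, n = 7), and the next name, proliferating CD8+ T cells, was at 27.3 ± 25.7 (n = 6). Klrb1c was at 349 ± 71.7 in NK cells and 74.9 ± 37.4 in naive or early activated CD8+ T cells (n = 7 each). Klre1 was at 321 ± 77.6 in NK cells and 164 ± 45.4 in precursor-exhausted CD8+ T cells. In each of these the lowest NK value lay above the highest value of the following name.

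The Ncr1 and Klrb1c that remained in T cells sat in particular names. Of the naive or early activated CD8+ T cells, 16.3% (245 of 1502) had a UMI of either gene, as did 12.8% of the proliferating CD8+ T cells, against 4.71% of the precursor-exhausted cells, 0.513% of the Tfh cells (follicular helper CD4+ T cells) and 89.6% of the NK cells. A Cd8a or Cd8b1 UMI was found in 58.1% of all naive or early activated CD8+ T cells but in 25.3% of those with Ncr1 or Klrb1c, and a Cd3 UMI in 96.1% of all and 84.5% of those with either gene. In proliferating CD8+ T cells a Cd3 UMI was found in 95.6% of all and 68.9% of those with either gene. Median depth was 3432 UMIs in naive or early activated CD8+ T cells, 5569 in the precursor-exhausted cells and 10372 in the proliferating CD8+ T cells. These shares were not thinned, and the part of depth in them was not tested.

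Klrk1 was highest in NK cells, at 460.5 ± 84.5 CPM, and graded down through the T cells. The 4 CD8+ names followed at 262 ± 85.0 (precursor-exhausted), 261 ± 49.8 (exhausted), 253 ± 54.2 (proliferating) and 219 ± 40.6 (naive or early activated), with no separate step among them or above them. The step from naive or early activated CD8+ T cells to gamma-delta T cells, at 123 ± 45.7 (n = 4), was separate, but names farther down overlapped the CD8+ names, with Tfh cells of KO replicate 1 at 204. Tfh cells were at 115 ± 57.7, Th1 cells 84.1 ± 60.2, naive or early activated CD4+ T cells 81.1 ± 38.3, proliferating CD4+ T cells and Tregs 43.1 ± 31.3, and Tregs 13.7 ± 4.27. Hcst, the adaptor of NKG2D, did not follow this order. It ranged from 579 ± 106 in exhausted CD8+ T cells to 163 ± 32.8 in proliferating CD4+ T cells and Tregs, stood at 290 ± 67.9 in NK cells and had no separate step anywhere in its order.

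The inhibitory NKG2A gene had a different order from the NK markers. Klrc1 was highest in exhausted (630 ± 104 CPM, n = 6) and precursor-exhausted CD8+ T cells (562 ± 124, n = 7), and NK cells ranked seventh of 11, at 259 ± 56.6. CD4+ T cells carried it as well, with 470 ± 126 in Tfh and 452 ± 127 in Th1 cells, while Tregs were at 55.1 ± 24.6 and gamma-delta T cells at 37.6 ± 40.6. No neighbours in this order were separate. Its partner gene Klrd1 was at 627 ± 76.1 in NK cells and 616 ± 75.0 in precursor-exhausted CD8+ T cells, 406 ± 131 in Tfh and 348 ± 115 in Th1 cells. From naive or early activated CD8+ T cells, at 342 ± 63.8, it fell by a separate step to 132 ± 82.7 in naive or early activated CD4+ T cells. Another separate step led from proliferating CD4+ T cells and Tregs, at 93.8 ± 53.35, to Tregs, at 19.5 ± 10.5. In gamma-delta T cells Klrd1 was at 2.36 ± 4.72 and Klre1 had no UMI in 4 mice, beside the Klrk1 level above.

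Among CD4+ T cells, those with an NKG2A transcript more often had a CD94 transcript. After each cell was thinned to 2372 UMIs, which left out shallower cells, a Klrd1 UMI was found in 58.1% of the 534 Tfh cells with a Klrc1 UMI and in 33.5% of the 579 without. In Th1 cells the shares were 50.9% of 580 and 28.3% of 630, and in proliferating CD4+ T cells and Tregs 40.5% of 84 and 6.99% of 329. Precursor-exhausted CD8+ T cells gave 74.9% of 3571 and 63.6% of 1387. In NK cells there was no such difference, with 71.9% of 285 and 72.2% of 522. Hcst by Klrk1 differed by name in both directions. Its share was 47.5% of NK cells with a Klrk1 UMI and 48.4% of those without, and 58.5% and 58.6% in Tfh cells. In naive or early activated CD4+ T cells it was 74.6% of 55 and 64.0% of 405, and in gamma-delta T cells 29.6% of 44 and 38.2% of 110. These shares pool cells of all mice and carry no test. Without thinning, a Cd8a or Cd8b1 UMI was found in 19.5% of Tfh cells, 16.5% of Th1 cells and 22.0% of proliferating CD4+ T cells and Tregs. The part of such cells in the Klrd1 shares was not tested.

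The activating NKG2C gene took another course from NKG2A. Klrc2 was highest in NK cells, at 125 ± 44.9 CPM, and made up 32.4% ± 8.50 of the Klrc1 and Klrc2 UMIs together there (n = 7). That share was 15.6% ± 4.94 in naive or early activated CD8+ T cells, 6.23% ± 3.56 in precursor-exhausted and 5.95% ± 3.81 in exhausted CD8+ T cells. The lowest NK value, 22.0%, lay above the highest in naive or early activated CD8+ T cells, 20.9%, but not above naive or early activated CD4+ T cells, which reached 22.7% in WT replicate 3 on few UMIs. With only whole values kept, the NK share was 31.5% ± 11.4 and the precursor-exhausted share 4.66% ± 2.64. Naive or early activated CD8+ T cells were also split by a Cd8a or Cd8b1 UMI, a choice made after the data were seen. Klrc2 was at 38.2 to 130 CPM in those without and 22.4 to 72.7 in those with one, and higher without in each mouse.

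In CD8+ T cells and NK cells Klrc2 overlapped between the genotypes and differed widely between mice. In precursor-exhausted CD8+ T cells it was at 18.7, 30.1, 77.3 and 26.2 CPM in KO replicates 1 to 4 and at 23.8, 65.7 and 17.9 in WT replicates 1 to 3. KO replicate 3 and WT replicate 2 stood above the other 5 mice, and the same 2 led in exhausted CD8+ T cells (80.2 and 74.2, against 17.2 to 27.7 in the others). In NK cells the values were 96.5, 86.8, 191 and 95.4 in KO and 157, 166 and 81.6 in WT, so WT replicate 1 joined the high mice there. Naive or early activated CD8+ T cells did not show the division: they were at 61.8, 47.6, 84.4 and 78.1 in KO and 29.0, 63.7 and 64.7 in WT, with WT replicate 2 below KO replicates 3 and 4 and WT replicate 3. Klrc3 gave 90.2 and 51.3 CPM in NK cells of KO replicate 3 and WT replicate 2 and 16.6 to 28.7 in the other 5. With whole values alone, Klrc2 in precursor-exhausted CD8+ T cells was still at 53.4 and 45.1 in these 2 mice against 14.2 to 23.6 in the others. Klrc1 did not separate the same mice: in precursor-exhausted cells KO replicate 3 was at 645 and WT replicate 2 at 514, within the range of the others. In Tregs, where Klrc2 did not pass the filter on low counts, it was at 4.63 to 10.9 CPM in the 4 KO mice and at 0.990 and 0 in WT replicates 2 and 3, with 1 UMI in the WT cells.

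**Figure D2:**
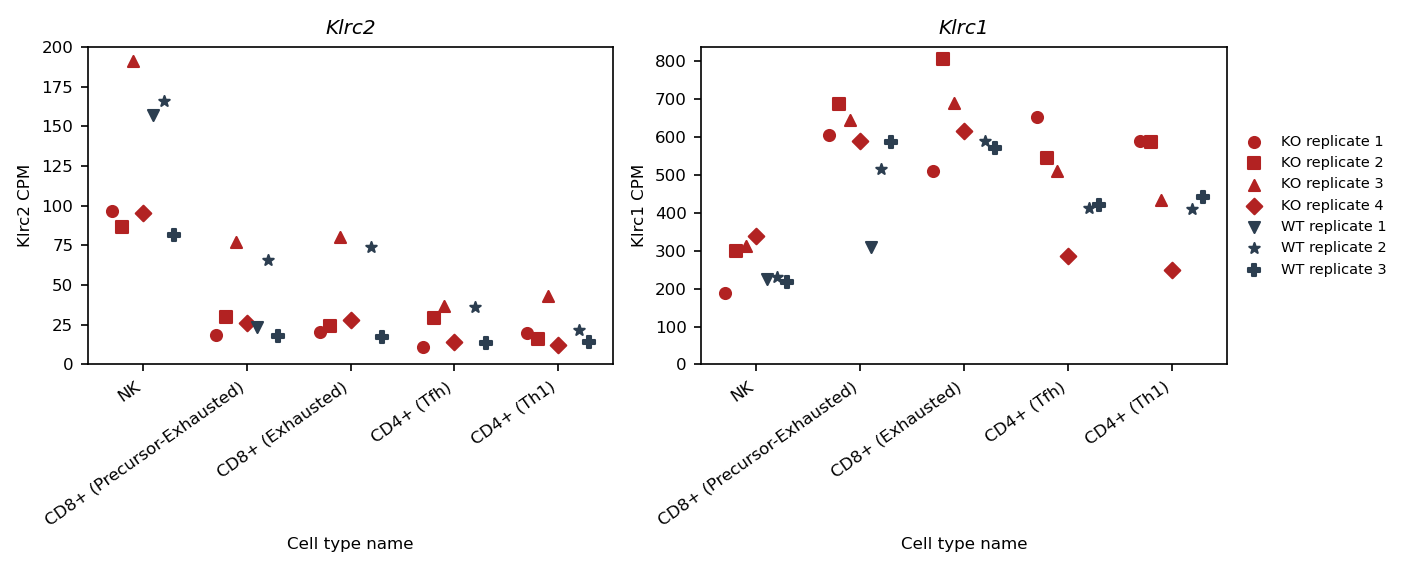
CPM of Klrc2 (left) and Klrc1 (right) in 5 cell type names (x axis), with 1 marker per mouse, red for KO and dark for WT; mice with fewer than 20 cells are not drawn. In precursor-exhausted CD8+ T cells Klrc2 is at 77.3 in KO replicate 3 and 65.7 in WT replicate 2 and at 30.1 or less in the other mice, a division that Klrc1 does not show.

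Klrg1 had an order of its own, led by regulatory rather than cytotoxic cells. It was at 128 ± 54.9 CPM in Tregs (n = 6), 53.4 ± 32.3 in proliferating CD4+ T cells and Tregs and 35.4 ± 17.2 in NK cells, and at most 9.48 ± 6.99 in any CD8+ name. Precursor-exhausted and exhausted CD8+ T cells, rich in Klrc1, held 2.38 ± 2.83 and 3.37 ± 3.08. Klrg1 had no UMI in the gamma-delta T cells of 4 mice.

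Over 68 sums of 1 name in 1 mouse, the pairs of the list that varied most alike on the log2(CPM + 1) scale were Klrd1 with Klre1 (Pearson r = 0.90), Ncr1 with Klrb1c (r = 0.88) and Klrc1 with Klrd1 (r = 0.87). Klrg1 with Klrk1 had the lowest r, -0.38. Among 8348 other genes with a mean of at least 10 CPM, the most alike were Sema4a, Atp8b4 and Ctsw for Klrk1 (r = 0.91, 0.87 and 0.86), and Klra7, Atp1b1 and Rbpms for Ncr1 (0.92, 0.91 and 0.89). Klrc1 came closest to Rcn1, Ms4a4b and Tmem163 (0.84, 0.79 and 0.78), Klrd1 to Ms4a4b, Ifitm10 and Mctp2 (0.88, 0.87 and 0.85), and Klre1 to Efhd2, Ctsw and Ifitm10 (0.85, 0.85 and 0.84). For Klrc2 they were Efhd2, Ifitm10 and Cd160 (0.84, 0.81 and 0.80), for Klrb1c Fcer1g, Klra7 and Klra1 (0.88, 0.86 and 0.85), for Klrg1 they included Gm6637 and Ighm (0.77 and 0.70) and for Hcst Pfdn5, Stk17b and Fau (0.82, 0.81 and 0.79). Sums of 1 mouse share a library, and the cell names shape all of these values, so they carry no p.

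The comparison of the genotypes in NK cells asked whether these receptors differ on NK cells of tumours whose microglia were targeted for Siglece deletion. Klrk1 was higher and Klrg1 lower in every KO mouse than in every WT mouse, and the other 7 genes overlapped between the groups. No gene of the list passed the test: edgeR's quasi-likelihood test with Benjamini-Hochberg adjustment called 1 of 7068 genes (0.0141%), Basp1, a membrane-bound signalling protein gene outside the list, named here after its value was seen (log2 fold change -2.40 with an SE of 0.37, adjusted p = 0.0276). Without KO replicate 2, or without KO replicate 3, no gene was called. At an unadjusted p under 0.05 there were 289 genes (4.09%) and 0 of the 9, and DESeq2 called 4 genes and 0 of the 9. Across all genes tested, every KO mouse lay above every WT mouse for 3.49% and below for 2.99%, which is the background for Klrk1 and Klrg1.

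Klrk1 was at 459, 471, 628 and 475 CPM in NK cells of KO replicates 1 to 4 and at 432, 395 and 364 in WT replicates 1 to 3. The groups did not overlap, and KO replicate 3 stood above the rest. KO over WT gave a log2 fold change of 0.34 (SE 0.18, adjusted p = 1.00, edgeR). By the share of NK cells with a UMI after thinning to 2372 UMIs, the groups overlapped: 67.1% ± 6.96 in KO (n = 4) and 59.9% ± 4.58 in WT (n = 3), exact permutation p = 0.20, two-sided. With cells thinned to the 25th percentile of depth, 3315 UMIs, the KO shares (72.1% to 93.3%) lay above the WT shares (63.2% to 69.4%), a difference of 13.4 points against 7.12 (exact permutation p = 0.0857). Without KO replicate 3 these differences were 8.68 and 4.55 points.

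Klrg1 was at 38.3, 22.3, 34.4 and 7.37 CPM in KO and 62.7, 40.2 and 42.2 in WT NK cells. All KO mice were below all WT mice, with KO replicate 1 and WT replicate 2 close together. KO over WT gave a log2 fold change of -0.96 (SE 0.48, adjusted p = 1.00, edgeR). The share of NK cells with a Klrg1 UMI was 3.23% ± 1.80 in KO and 7.70% ± 2.56 in WT, which gave an exact permutation p of 0.0286, the smallest that 4 mice against 3 allow, and 0.257 after adjustment over the 9 genes. These shares rest on 20 KO and 13 WT cells with a UMI. The exact permutation p was 0.0571 with thinning to the 25th percentile and 0.286 with no thinning, where KO replicate 1 had the highest share of the 7 mice (18.2%). That mouse also had the deepest NK cells, with a median of 8605 UMIs.

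Klrc1 was at 189, 300.1, 311 and 338 CPM in KO NK cells and 225, 231 and 218 in WT. KO replicate 1 was the lowest of the 7 mice and the other 3 KO mice were the highest, so the groups overlapped (log2 fold change 0.32, SE 0.20, adjusted p = 1.00, edgeR). Its share of NK cells was 37.4% ± 6.80 in KO and 26.9% ± 3.96 in WT (exact permutation p = 0.0857, 0.386 adjusted over the 9 genes). With no thinning it was 49.3% ± 3.35 in KO and 35.6% ± 4.13 in WT, and every KO mouse lay above every WT mouse (exact permutation p = 0.0286, 0.257 adjusted over the 9 genes). As for Klrg1, a gene alone at the smallest p could not pass 0.05 after adjustment. Unthinned shares also depend on depth. The median UMIs per NK cell were 8605, 4738, 4302 and 5535 in KO and 3823, 4447 and 5444 in WT. The part of depth in this separation was not tested. The remaining log2 fold changes were 0.30 (SE 0.21) for Klrb1c, -0.34 (0.21) for Klre1, -0.21 (0.31) for Klrc2, -0.07 (0.20) for Ncr1, -0.05 (0.17) for Klrd1 and -0.02 (0.22) for Hcst. The median over the 9 genes was -0.05 and over all genes tested -0.01.

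**Figure D3:**
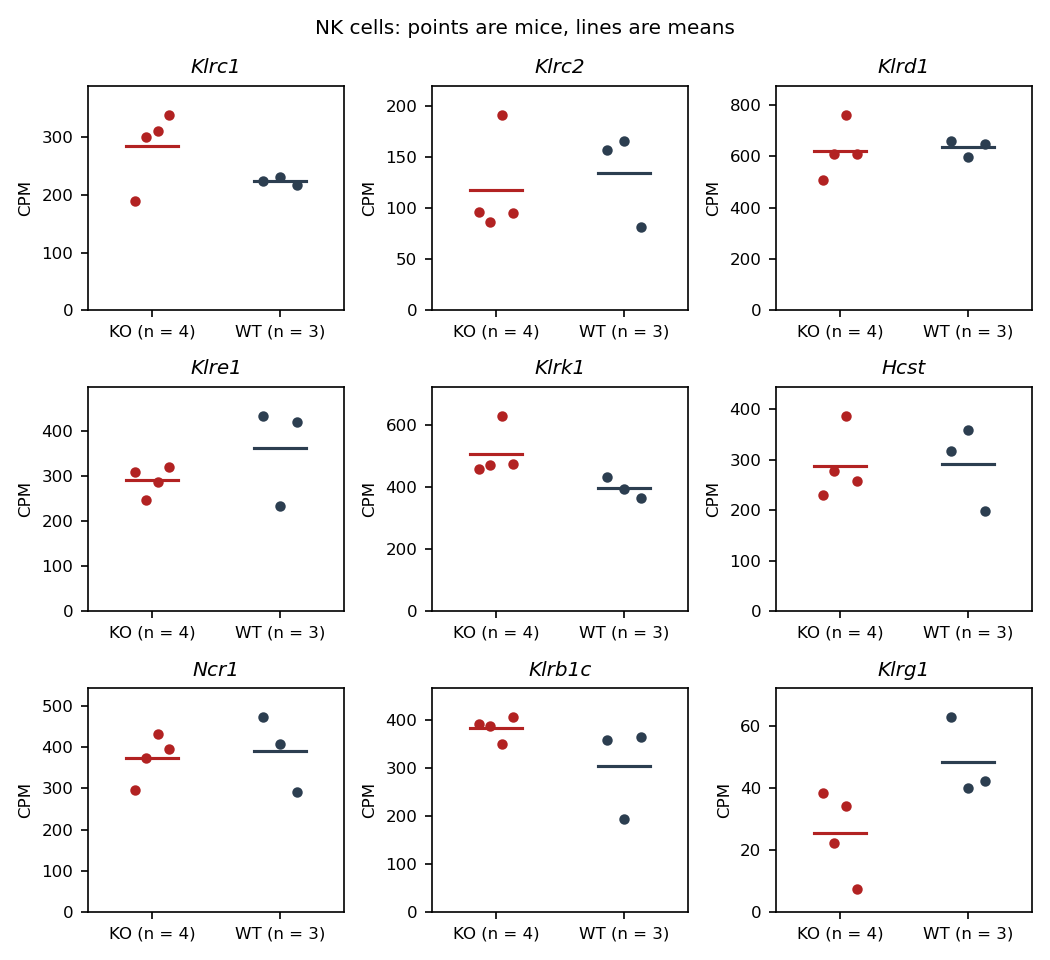
CPM of each of the 9 genes in NK cells (y axis, from 0) for 4 KO and 3 WT mice; points are mice and lines are group means. All KO points lie above the WT points for Klrk1 (459 or more against 432 or less) and below them for Klrg1 (38.3 or less against 40.2 or more), and the groups overlap for the others.

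The summed CPM of 5 T cell markers (Cd3d, Cd3e, Cd3g, Trac and Trbc2, all detected) in NK cells was 369 to 558 in KO and 405 to 1065 in WT mice, against 2732 to 4206 in T cells. With NK cells that held a Cd3 UMI left out, a choice made after the data were seen, the log2 fold changes were 0.34 for Klrk1 and -1.04 for Klrg1, and edgeR called 0 of the 9. The summed CPM of 2 plasmacytoid dendritic cell markers (Siglech and Bst2, both detected) in NK cells was 105 to 191 in KO and 214 to 233.5 in WT, without overlap. Bst2 made up nearly all of it. Siglech averaged 1.28 CPM in NK cells and Bst2 174, against 2397 and 4213 in plasmacytoid dendritic cells. Over 3 microglial markers the sum in NK cells was 22.67 to 46.07 in KO and 46.85 to 81.19 in WT, also without overlap. The sums of the other marker lists overlapped in NK cells. The part of any of these marker sums in the differences of Klrk1 and Klrg1 was not tested.

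Of the other gene lists of the NK programme, edgeR called no gene in NK cells. Of 21 further killer lectin-like genes 14 were tested, 7 of them higher and 7 lower in KO NK cells (median log2 fold change -0.04). Of 18 adaptor and signalling genes 17 were tested, 7 higher and 10 lower, and of 8 cytokine receptors 5 were higher and 3 lower. Of 11 genes of NK cell maturation 4 were higher and 7 lower, and of 8 other NK receptors 6 were higher and 2 lower. Tyrobp, an adaptor gene for activating NK receptors, was at 1871 CPM in KO and 1747 in WT.

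In T cells, the contrast in which Klrk1 had drawn attention, its CPM over the sum of all T cells was 233, 272, 262 and 193 in KO and 117, 96.0 and 134 in WT. All KO mice lay above all WT mice, with a log2 fold change of 1.09 (SE 0.18). The same held for Klrc1 (520.4 against 327 CPM on average, 0.69), Klrd1 (501 against 286, 0.83) and Klre1 (120 against 63.2, 0.94). The groups overlapped for Hcst (0.52), Klrc2 (0.81), Klrb1c (0.58), Ncr1 (0.30) and Klrg1 (-1.15). Thus 4 of the 9 were non-overlapping upward, where 3.03% of all genes tested were, but nothing is read from that count since the list came from this contrast. Across all 13043 genes, none was called by edgeR (0%), the unadjusted p was under 0.05 for 855 (6.56%) and DESeq2 called 35 genes, and nothing is read of the 9 genes from these counts.

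The make-up of the T cells moved in the same direction. CD8+ names, where Klrk1, Klrc1 and Klrd1 are high, made up 52.2%, 63.1%, 78.4% and 63.6% of the T cells of KO mice and 40.5%, 33.4% and 59.2% of those of WT mice, so that KO replicate 1 was below WT replicate 3. Some marker sums in the T cells also separated the genotypes. Over Ccr7, Lef1 and Il7r, markers of naive or early T cells, the summed CPM was 269 to 409 in KO and 467 to 605 in WT mice. Over Siglech and Bst2 it was 128.5 to 179 in KO and 202 to 439 in WT, and over the dendritic cell markers Flt3, Xcr1 and Cd209a 1.50 to 4.50 in KO and 5.02 to 7.34 in WT. None of these overlapped, while the sums of the other marker lists did, those of T, CD8, regulatory, exhausted and NK cells among them. The part of any of them in the levels of the 9 genes was not tested. In the sum over all T cells, a change of make-up and a change of level per cell cannot be told apart. When the 3 names with 20 cells in every mouse were weighted equally, the difference in Klrk1 was 0.76 on the log2(CPM + 1) scale.

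Within single names, which hold the same cells and the gene that was selected on, the mean of Klrk1 was higher in KO mice in the 9 that could be compared. These values are a description, and nothing is read from that count. In precursor-exhausted CD8+ T cells it was at 303, 387, 317 and 262 CPM in KO and 127, 239 and 197 in WT, with no overlap (log2 fold change 0.74, SE 0.22; 3.95% of all genes there lay wholly above). In naive or early activated CD8+ T cells it was at 268, 264, 225 and 235 in KO and 180, 201 and 161 in WT, again with no overlap (0.45, SE 0.17; 3.46% of all genes). Exhausted and proliferating CD8+ T cells overlapped, with log2 fold changes of 0.25 and 0.35 over 4 KO and 2 WT mice.

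Among CD4+ T cells the spread within the KO group was wide. Th1 cells gave 165, 152, 76.3 and 32.9 CPM in KO and 35.4 and 42.1 in WT replicates 2 and 3, so KO replicate 4 was below both WT mice. Tfh cells gave 204, 157, 121 and 65.8 in KO and 52.8 and 90.7 in WT. Proliferating CD4+ T cells and Tregs gave 75.7, 70.0, 24.3 and 67.7 in KO and 8.64 and 12.1 in WT replicates 2 and 3, with no overlap (2.54, SE 0.41; 5.86% of all genes). WT replicate 1 had fewer than 20 cells of these 3 names and was not used for them. Its 11 proliferating CD4+ T cells and Tregs were at 40.4 CPM, above KO replicate 3, so the separation there rests on leaving that mouse out. Tregs, the lowest of all names, gave 11.5 to 18.8 CPM in KO and 7.92 and 10.6 in WT replicates 2 and 3, without overlap (7.36% of all genes). WT replicate 1, with 5 Tregs and no Klrk1 UMI in them, was not used. Cd8a or Cd8b1 UMIs were found in 12.4% of Tregs and, as given above, in 16.5% to 22.0% of the other names here. Their part in the Klrk1 levels was not tested.

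With the CD8+ cells limited to those with a Cd8a or Cd8b1 UMI, a split chosen after the data were seen, Klrk1 in naive or early activated cells was at 185, 273, 193 and 246 in KO and 171, 161 and 149 in WT. The groups did not overlap. In precursor-exhausted cells the values were 296, 392, 319 and 265 in KO and 134, 267 and 205 in WT, so that KO replicate 4 and WT replicate 2 crossed.

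**Figure D4:**
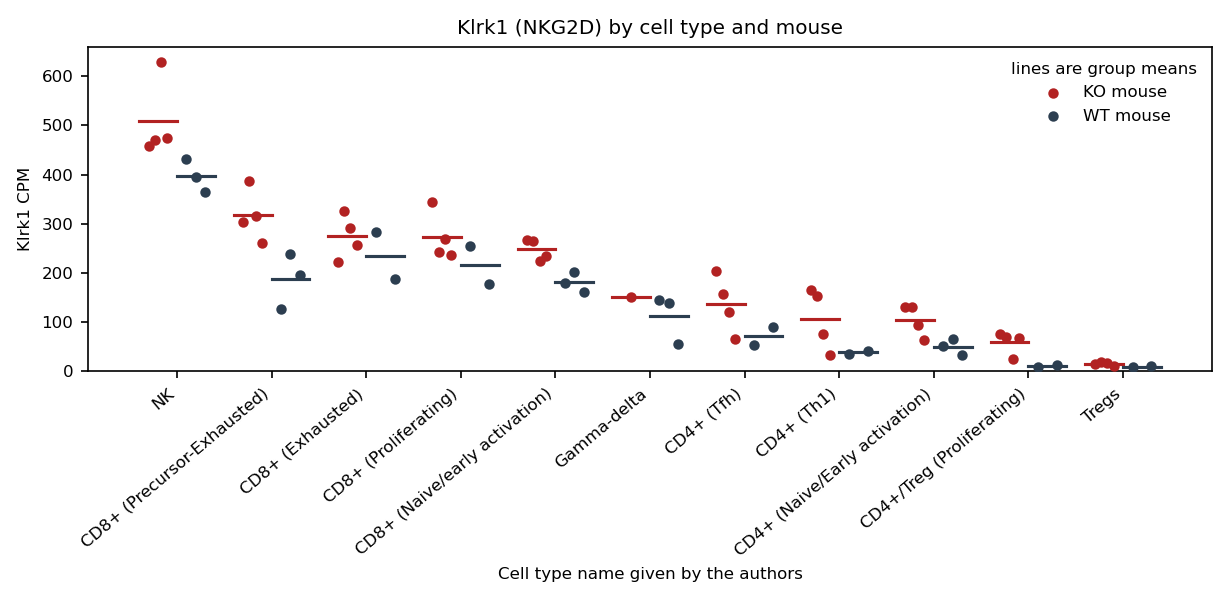
Klrk1 CPM (y axis, from 0) in each T and NK cell name (x axis), with KO mice in red, WT mice in dark and lines for group means; mice with fewer than 20 cells of a name are not drawn. The KO mean is above the WT mean in each name with at least 2 mice a group, from 508 against 397 in NK cells to 15.9 against 9.27 in Tregs.

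Of the other genes, Klrc1 in precursor-exhausted CD8+ T cells was at 604, 687, 645 and 589 CPM in KO and 309, 514 and 586.5 in WT, non-overlapping by a narrow margin. Klrd1 (417 against 344 CPM on average) and Klre1 (145 against 85.8) were non-overlapping in proliferating CD8+ T cells (9.46% of all genes). WT replicate 1, with 14 such cells, was left out. In those with a Cd8a or Cd8b1 UMI, a split chosen after the data were seen, Klrd1 overlapped. It was at 416 in WT replicate 2 (12 cells) and 378 in KO replicate 1. Klre1 was at 121 in 10 such cells of WT replicate 1 and at 93.8 in KO replicate 2. Klrd1 (122 against 37.6) was also non-overlapping in proliferating CD4+ T cells and Tregs (5.86% of all genes). WT replicate 1, with 11 of these cells, was left out there too. The other genes of the list that passed the filter on low counts overlapped in each T cell name that was fitted, apart from Klrk1 as above. Klre1 did not pass the filter in Tregs or in naive or early activated CD4+ T cells. It was at 8.44 against 0.495 CPM on average in Tregs and 23.7 against 6.54 in the naive or early activated cells, without overlap. The Treg comparison left out WT replicate 1, with 5 Tregs, and its WT level rests on very few UMIs. Shares over all genes cover only genes that passed the filter, so none stands beside these values.

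Klrk1 and Klrd1 were also read outside the T and NK cells, in dendritic cells. Klrd1 was at 287 ± 96.9 CPM in monocyte-derived dendritic cells (mo-DCs), 232 ± 112 in plasmacytoid dendritic cells and 59.2 ± 23.9 in conventional dendritic cells (n = 7 each), against 6.96 ± 6.45 in B cells (n = 6). Klrk1 was at 167 ± 48.0 in mo-DCs, 148 ± 32.9 in conventional dendritic cells and 9.92 ± 7.09 in plasmacytoid dendritic cells, against 4.60 ± 5.16 in B cells. After thinning to 2372 UMIs, a Klrd1 UMI was found in 39.2% of mo-DCs and 34.8% of plasmacytoid dendritic cells and a Klrk1 UMI in 30.0% of mo-DCs and 26.6% of conventional dendritic cells. In B cells, which should lack both, the shares were 1.01% and 0.577%. Without thinning the Klrk1 shares were 61.6% in mo-DCs and 2.74% in B cells, at median depths of 9017 and 7302 UMIs.

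**Figure D5:**
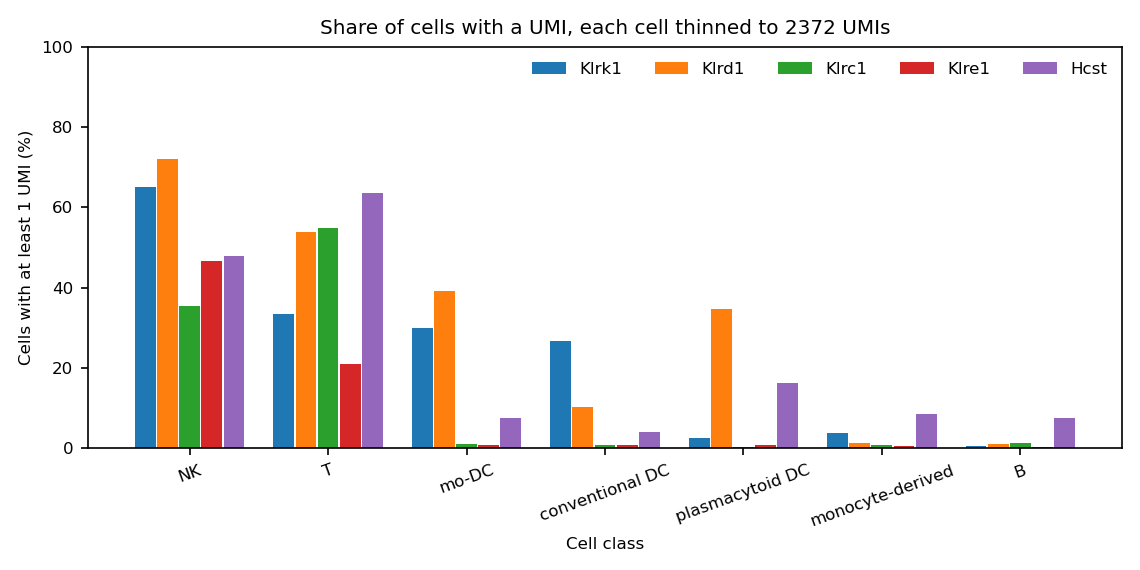
Percent of cells with at least 1 UMI (y axis, from 0 to 100) of 5 genes in 7 cell classes (x axis), with cells of all mice pooled and each thinned to 2372 UMIs. Klrd1 reaches 39.2% in mo-DCs and Klrk1 30.0%, while Klrc1 and Klre1 are near 0 there, and all but Hcst are near 0 in B cells.

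Klrc1 and Klre1 stayed low in the mo-DCs. The summed level of the 5 T cell markers was 11.5 to 167 CPM in mo-DCs and 6.30 to 72.2 in B cells, while Klrc1 in mo-DCs was at 1.41 to 10.6 and Klre1 at 2.42 to 5.29. Between the genotypes the dendritic levels of Klrk1 and Klrd1 overlapped: log2 fold changes in mo-DCs were 0.11 (SE 0.28) and -0.35 (0.28), and WT replicate 1 was the highest of all mice for both, at 231 and 483 CPM.

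In monocyte-derived cells and conventional dendritic cells 5 of the 9 genes passed the filter on low counts (Klrk1, Klrc1, Klrd1, Klre1 and Hcst). Klrc1 (5.59 against 1.72 CPM on average, log2 fold change 1.69, SE 0.41), Klrd1 (7.66 against 3.53, 1.09, SE 0.31) and Klre1 (2.19 against 0.540, 2.05, SE 0.49) were higher in every KO than in every WT monocyte-derived population, where 2.74% of all genes were. None of the 5 was called by edgeR, nor any of 11943 genes (0%), and the adjusted p was 0.827 for each of the 3. The unadjusted p was under 0.05 for 675 genes (5.65%), and DESeq2 called 20. The 5 T cell markers, all detected, summed to 37.9 to 58.3 CPM in KO and 10.6 to 26.8 in WT monocyte-derived cells. Over Cd8a and Cd8b1 the sum was 11.3 to 24.3 in KO and 2.98 to 9.05 in WT. Over Siglech and Bst2 it was 357 to 761 in KO and 844 to 1073 in WT. The part of these markers in the differences of Klrc1, Klrd1 and Klre1 was not tested. In conventional dendritic cells Klrc1 (9.15 against 1.48) and Hcst (21.9 against 14.2) were non-overlapping upward, as were 5.07% of all genes. None of the 5 was called (edgeR, adjusted p = 0.697 for Klrc1 and 0.637 for Hcst). Of all genes there, edgeR called 0%, 6.95% had an unadjusted p under 0.05, and DESeq2 called 14 genes. There the T cell markers were at 44.5 to 90.4 CPM in KO and 4.03 to 23.4 in WT, and their part was not tested either. In tumour or stromal cells, where none of the 9 passed the filter, Klrk1, Klrc1, Klrc2, Klrd1 and Hcst were higher in each of 2 KO than in each of 3 WT mice. The T cell markers there were at 36.4 to 75.3 CPM in KO and 2.87 to 7.73 in WT. Klrc1 was also non-overlapping upward in plasmacytoid dendritic cells (8.335 against 0.41). In microglia and B cells the 9 genes overlapped. No share over all genes stands beside these values.

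Transcripts of ligands of these receptors were read in the tumour, where Raet1e, Cdh2 and H2-T23 were named after their values were seen. Ulbp1, which encodes the NKG2D ligand MULT1, was at 126 ± 14.2 CPM in tumour or stromal cells (n = 5 mice with 20 such cells) and 39.7 ± 7.74 in proliferating CD8+ T cells (n = 6). Raet1e, an RAE-1 gene, was at 44.7 ± 12.4 in tumour or stromal cells and 3.11 ± 1.38 in monocyte-derived cells. Cdh2, N-cadherin and a KLRG1 ligand, was at 157 ± 25.3 in tumour or stromal cells and at most 2.12 ± 3.20 in any other population. Cdh1, E-cadherin, was instead highest in plasmacytoid dendritic cells (171 ± 39.0) and mo-DCs (107 ± 30.4). H2-T23, the gene of the NKG2A ligand, was read in every class, with its peak of 1278 ± 158 CPM in plasmacytoid dendritic cells.

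No ligand gene that could be tested passed the test between the genotypes. The 4 lists held 23 genes, of which H2-D1, B2m, Tap1 and Tap2 stood for the loading of the NKG2A ligand and not for ligands. Between 6 (microglia) and 11 (monocyte-derived cells) passed the filter on low counts in each of the 7 classes of myeloid, B and tumour or stromal cells. H2-T23 and its loading genes gave 5 of those tested in each class. No NKG2D ligand gene passed the filter in microglia, plasmacytoid dendritic cells or B cells. Of all genes tested from these lists, edgeR called 0 and DESeq2 called 0. The share of all genes that edgeR called was 0.0415% in microglia, 0.045% in plasmacytoid dendritic cells, 0.0288% in tumour or stromal cells and 0% in the other 4. Over 2 KO and 3 WT mice, Ulbp1 in tumour or stromal cells had a log2 fold change of -0.19 (SE 0.16) and Raet1e of 0.18 (SE 0.28). Clec2d, a ligand of the NKR-P1 family, was at 34.1 to 59.2 CPM in mo-DCs of KO and 53.9 to 93.9 of WT mice (log2 fold change -0.65, SE 0.22, adjusted p = 0.579, edgeR). In NK cells themselves Cdh1 was at 32.8, 55.4, 34.4 and 55.0 CPM in KO and 18.5, 20.1 and 24.1 in WT. It did not overlap between the groups but was not called either (log2 fold change 1.05, SE 0.32, adjusted p = 1.00, edgeR).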

How the data were processed

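The authors deposited 1 matrix of expected counts (UMIs per gene and cell, unscaled, not all whole numbers) and 1 cell table with the library, the cell type name and quality measures in counts and percent, per the file headers. STAR 2.7.10a, STARsolo, FastQC 0.11.5 and build mm10 are named in the submitters' processing notes; cell filters, doublet handling and the naming method are not given in the sources used here, and no doublet caller was run. The 9 genes and all gene lists were chosen with earlier results of these data known.

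Values were summed per mouse and class or name, rounded to whole numbers, and fitted with edgeR 4.0.16 in R 4.3.3 (TMM, filterByExpr, robust quasi-likelihood, genotype as the only term) over populations with at least 20 cells in at least 2 mice a group; calls needed an adjusted p (Benjamini-Hochberg, over every gene in the fit) below 0.05. SE is the absolute log2 fold change over the square root of F. Gamma-delta T cells could not be fitted. Totals were 16037214 to 38966377 UMIs per library. NK cell shares were compared after thinning by exact permutation over 35 splits of the mice. The fits were tested on simulated data, with changes planted only in genes above the median level and 1 fixed dispersion. Of planted log2 fold changes of 1, up or down, 54% were called in NK cells and 68% in T cells. For planted changes of 2 the shares were 98% and 100%. Changes of 1 or less can thus be missed in NK cells. P-values set the difference between the genotypes against the spread between mice, not between cells. Genes beyond the list were named by the 3 highest Pearson r per gene or from fixed pathway lists, by call or highest level; some genes of these rules and of the marker lists are not reported here. Alternatives were DESeq2 1.42.0, its size factors, no filter, whole values only, equal NK cell numbers, a replicate block, sex as a term and leaving out each mouse.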

Additional observations from a re-analysis of the deposited data

Results flagged for a closer look

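In groups of 4 KO mice, 1 mouse lay far from the other 3 in 10 of 98 tested sets of 1 gene in 1 cell type name. The sets held CPM levels and, for NK cells, also the thinned shares of cells with a UMI. All 10 were CPM levels. Chance gives about 1 in 20 for normally distributed values in independent sets, but these sets share the same mice. In 4 of the 10 the other 3 mice were at 0, so that any UMI in 1 mouse sets it apart and that rate does not apply (Klrg1 in Th1 cells, and Ncr1 in Tfh cells, in Tregs and in proliferating CD4+ T cells and Tregs). KO replicate 3 was the high mouse for Klrc2 in exhausted CD8+ T cells (80.2 CPM against 20.5 to 27.7) and in NK cells (191 against 86.8 to 96.5), and for Klrk1 in NK cells (628 against 459 to 475). It was the low mouse for Klrk1 in proliferating CD4+ T cells and Tregs (24.3 against 67.7 to 75.7), and it alone had Klrg1 in Th1 cells (3.82 against 0).

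KO replicate 2 was the mouse set apart for Ncr1 in 4 names: naive or early activated CD4+ T cells (15.7 CPM against 0 to 2.44), Tregs (7.82 against 0), proliferating CD4+ T cells and Tregs (1.67 against 0) and Tfh cells (1.01 against 0). Levels of this size rest on few UMIs. KO replicate 1 was low for Klrd1 in Tregs (3.16 against 26.6 to 28.9), over 54 cells.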

How the results depend on the processing

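The 51 to 259 NK cells per mouse limit precision. No gene of the list was called in NK cells under the 15 alternatives run, and the lowest adjusted p was 0.585 (Klrg1). Over them the log2 fold change was 0.247 to 0.426 for Klrk1, -1.458 to -0.599 for Klrg1 and 0.2 to 0.486 for Klrc1. Changes of sign occurred in 15 of 135 values, for genes near 0. With no filter on low counts they were Klrd1 0.035, Ncr1 0.022 and Hcst 0.07, with sex as a term Ncr1 0.003 and Hcst 0.071, and with equal cell numbers Hcst 0.015. Leaving out 1 mouse at a time gave -0.499 to 0.004 for Klrc2, -0.135 to 0.037 for Klrd1, -0.224 to 0.105 for Ncr1 and -0.225 to 0.173 for Hcst. The positive ends came without WT replicate 2, KO replicate 1, WT replicate 1 and WT replicate 2. For shares of NK cells, signs changed without thinning for Klrc2 (1.216 points), Klre1 (0.427) and Hcst (4.457), with thinning to the 25th percentile for Ncr1 (-1.792) and Hcst (1.634). With 1 mouse left out, the shares differed by -10.71 to 0.625 points for Klrc2, -3.262 to 9.088 for Klrb1c and -1.592 to 5.108 for Ncr1. The genes called in NK cells numbered 1, but 27 with no filter, 6 with the replicate block and 4 by DESeq2. They numbered 2 without KO replicate 1 and 3 without KO replicate 4. There were 0 without KO replicate 2, without KO replicate 3 or with equal cell numbers. In T cells, where the list was selected, the count of the 9 past the threshold moved from 0 to 1 by DESeq2 and with no filter. Of all genes there, DESeq2 called 35 of 13043 and the fit with no filter 3 of 25744. The list came from this contrast, so the count is no test and nothing is read from it. Of the ligand genes, 1 was called with no filter (Clec2d in mo-DCs, adjusted p = 0.0147, edgeR, where 182 of all 21012 genes were called against 0 of 10501 with the filter) and 0 otherwise. The list had 6 genes highest in NK cells, and 5 with a minimum of 50 cells or with UMIs pooled over mice. Same-numbered mice did not deviate together in NK cells (r = -0.21, 0.01 and -0.31), and in monocyte-derived cells r was 0.13, 0.06 and -0.21. These r come from values centred within each small group and cannot settle whether the numbers pair the mice. With the replicate block Hcst was 0.025 and no gene of the list was called in NK cells. The block could not be fitted in tumour or stromal cells. The cause of these changes was not tested.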

Other observations

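Of 21 other killer lectin-like genes, 15 were tested in T cells, and 14 had a higher fitted level in KO and 1 a lower one (median log2 fold change 0.71, against 0.01 over all 13043 genes tested, of which 6794 were higher in KO). Klrh1 was at 111 CPM in KO and 37.1 in WT on average, Klri2 at 39.3 and 14.6, and Klra3 at 10.1 and 2.06, and these 3 did not overlap between the groups, where 3.03% of all genes tested lay wholly above in KO. They were named after their values were seen. This contrast is the one from which the list of 9 genes was drawn, and the CD8+ share of the T cells moved with it, so the counts are a description.

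Of the naive or early activated CD8+ T cells without a Cd8a or Cd8b1 UMI, Ncr1 was at 115, 43.6, 59.9 and 62.0 CPM in KO and 38.6, 18.2 and 65.2 in WT mice. Klrb1c was at 256, 158, 107 and 164 in KO and 158, 40.5 and 120 in WT in the same cells. The groups overlapped for both genes.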
